A study of Mus musculus with 6 samples.

Results

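Protein kinase A (PKA) is the cAMP-dependent kinase through which adrenergic stimulation acts on brown adipocytes. Its mRNAs were examined here, in differentiated cultures of a brown preadipocyte line with and without MICT1, as 10 genes. These were the regulatory subunit genes Prkar1a, Prkar1b, Prkar2a and Prkar2b, the catalytic subunit genes Prkaca and Prkacb, and the anchoring protein genes Akap1, Akap11, Akap12 and Akap13. They were chosen by gene symbol, and 10 of 10 were found among the 13283 genes of the deposited table. In MICT1 KO cells both RII genes were lower and both RI genes were higher. Of the catalytic genes, Prkacb was lower by a smaller amount than the RII genes, whereas Prkaca, the gene of the main catalytic subunit, did not pass the test. Prkar2b fell most, from 1857 ± 289 to 568 ± 38.1 (SD, n = 3 per group).

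The cells were brown preadipocytes of an immortalized mouse line (BAT cells) that stably expressed Cas9, and they were differentiated in culture. The controls (here Scr, n = 3; named Control, with genotype WT, in the labels) carried a scrambled sgRNA, and the MICT1 KO cells (n = 3, MICT1-CRISPR KO in the labels) were knockout pools rather than clones, made with a pair of sgRNAs whose assignment to libraries is not given. MICT1 is a microprotein that binds the calcium-dependent phosphatase PP2B (calcineurin). Both groups went through the same adipogenic differentiation, whose induction medium held isobutylmethylxanthine, an inhibitor of cAMP breakdown, and both received 10 µM forskolin, an activator of adenylyl cyclase, for 6 h at day 6. There was no library without forskolin, so the response of these genes to cAMP was not measured, and MICT1 itself was not analysed here.

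The PKA holoenzyme holds a dimer of regulatory (R) subunits that keeps catalytic (C) subunits inactive until cAMP binds to R and frees C. RI and RII differ in the short inhibitor site that occupies the active site of C: RII presents a serine that C phosphorylates and PP2B can dephosphorylate, while RI presents a residue that cannot be phosphorylated. RIIβ, encoded by Prkar2b, is the R isoform typical of adipocytes. A-kinase anchoring proteins (AKAPs) hold R subunits, most of them RII, at membranes and organelles close to receptors, phosphatases and substrates.

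The coding bases of the inhibitor site are shown because they tell the RI genes from the RII genes, and any link to the mRNA changes was not tested. Each is the coding strand of GENCODE vM21, 5′ to 3′, with the codon of the phosphorylated serine, or the codon in its place, in capitals.
Prkar1a: cgccgaggtGCTatcagt
Prkar1b: cggcggggcGGTgtgagt
Prkar2a: agacgagtaTCAgtctgt
Prkar2b: aggcgtgccTCGgtctgt
The capital codon encodes alanine in Prkar1a (codon 99), glycine in Prkar1b (codon 99) and serine in Prkar2a (codon 97) and Prkar2b (codon 112), counted from the start codon. On GRCm38 the Prkar1a bases lie in an exon at chr11:109660107-109660124 on the plus strand and those of Prkar1b in an exon at chr5:139108529-139108546 on the minus strand. The stretch is split by an intron in Prkar2a (chr9:108714296-108716867, plus strand) and in Prkar2b (chr12:31993779-32038634, minus strand).

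The values are a normalized signal per gene, read as estimated reads divided by a size factor per library. Each library had a step of its own, of which most low values were whole multiples (88.8% to 90.3% of those below 20, tolerance 0.01), and this step corresponds to a depth from 15441042 to 17918612 reads per library. The groups were compared as log2(value + 1) by limma-trend over the 12507 genes that reached a value of 10 in 3 or more libraries, with Benjamini-Hochberg adjustment across all of them. All 10 PKA genes passed this filter, each with values of at least 64.3 in every library. The ribosomal RNA row Rn45s made up 1.92% of the values of Scr replicate 2 against 0.507% to 0.831% in the other libraries, and this library is left out beside the results it moves.

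With an adjusted p under 0.05, 4 of the 10 PKA genes were lower and 3 were higher in MICT1 KO cells. Among all genes tested, 28.3% were lower and 28.5% higher by the same rule (56.9% in either direction), so that the share of PKA genes that changed was not far from that of the transcriptome. The median log2 fold change was 0.014 over the 10 genes and -0.0053 over all genes tested. The groups did not overlap in these same 4 lower and 3 higher genes, as in 31.2% (lower) and 30.9% (higher) of all genes tested. By the fold and p of the methods (a fold of 1.8 and an unadjusted p under 0.05), Prkar2b was lower and Prkar1b and Akap12 were higher, against 7.39% and 10.1% of all genes. The methods also ask for a maximum RPKM (value per exon length and library total) of 4. That limit was not applied in these counts, and Prkar1b, at most 3.87 RPKM, did not reach it. Prkar2b, Prkar1b and Akap12 also passed an adjusted p under 0.05 with a 2-fold change, as did 5.76% (lower) and 7.99% (higher) of all genes.

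**Figure D1:**
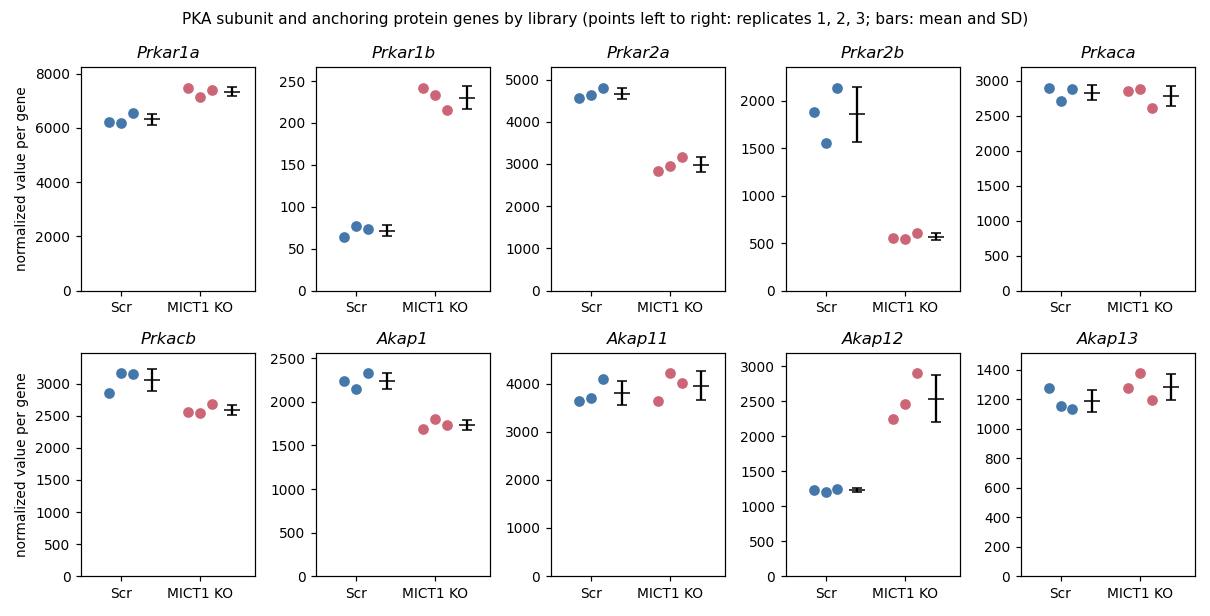
Normalized value per gene (vertical axis, from 0) of the 10 PKA genes in the 3 Scr (blue) and 3 MICT1 KO (red) libraries, with the mean and SD of each group as bars. The groups are apart in 7 genes, most widely in Prkar1b and Prkar2b, and overlap in Prkaca, Akap11 and Akap13.

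Prkar2b, on chromosome 12 from 31958450 to 32061648 (GRCm38), had values of 1878, 1557 and 2135 in Scr replicates 1 to 3, against 552, 541 and 612 in MICT1 KO replicates 1 to 3. Each MICT1 KO value was thus less than any Scr value, and the spread was wider among the Scr libraries. Its log2 fold change was -1.70 (SE 0.093, 95% interval -1.89 to -1.50, limma-trend adjusted p = 2.27e-12), or 3.27-fold lower by the group means. Ordered by log2 fold change from the lowest, Prkar2b stood at rank 302 of the 12507 genes. Without Scr replicate 2, the Scr library with the least Prkar2b, its log2 fold change was -1.82.

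The level of mature adipocyte markers was lower in MICT1 KO libraries, as that of Prkar2b was. Summed over 10 such markers in CPM (values scaled to the same total in each library), it was 8800, 7700 and 9300 in Scr replicates 1, 2 and 3 and 1120, 907 and 1320 in MICT1 KO replicates 1, 2 and 3. In both groups replicate 3 had the most Prkar2b and the highest marker sum, and replicate 2 the least of both. Single genes did not all keep this order. In Scr replicates 1, 2 and 3 Lpl kept it (53808, 50279 and 61031). Fabp4 (56242, 48661 and 55126) and Adipoq (733, 468 and 672) were highest in Scr replicate 1. Prkar2a was lowest in KO replicate 1 (2825). Fewer cells that express a gene and less RNA of it per cell cannot be told apart in such bulk libraries, and the part of adipocyte content in the changes of the PKA genes was not tested.

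Prkar2a encodes RIIα, the more widely expressed RII isoform, and lies on chromosome 9 from 108692143 to 108750444. It fell from 4563, 4626 and 4805 in Scr down to 2825, 2944 and 3175 in MICT1 KO libraries, with no overlap between the groups. In log2 terms the change was -0.65 (SE 0.057, 95% interval -0.77 to -0.53, limma-trend adjusted p = 4.75e-09). Its interval did not overlap that of Prkar2b, although the difference between the genes was not itself tested.

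Prkar1a encodes RIα, the R subunit found in nearly all cells, whose loss frees C subunits, and lies on chromosome 11 from 109649023 to 109669663. Its values were 6216, 6177 and 6545 in Scr, against 7479, 7139 and 7384 in MICT1 KO libraries. The rise was small and without overlap, a log2 fold change of 0.22 (with SE 0.052, 95% interval 0.11 to 0.32, limma-trend adjusted p = 0.00127). In level it remained the highest of the R genes in both groups.

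Prkar1b, which encodes RIβ, an isoform best known from neurons, lies on chromosome 5 from 139017304 to 139150703. It was scarce in Scr libraries, at 64.3, 76.9 and 73.3, and reached 242, 233 and 215 in MICT1 KO libraries. The log2 fold change of 1.67 (SE 0.17, 95% interval 1.32 to 2.03, limma-trend adjusted p = 4.42e-08) was the largest rise among the 10 genes, at rank 382 from the highest of all genes tested. Over 341 bases its annotated exons overlap those of Gm15672, annotated as a processed transcript on the same strand and without a row in the table, so reads of this stretch cannot be told apart by strand.

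The R genes thus moved in opposite directions by type. As a share of the summed normalized value of the 4 R genes, Prkar2b made up 14.8%, 12.5% and 15.7% in Scr replicates 1 to 3, and in MICT1 KO replicates 1 to 3 it made up 4.97%, 4.98% and 5.37%. Prkar2a went from 36.2% ± 0.914 to 26.8% ± 1.24 (SD, n = 3 per group). Prkar1a went from 48.9% ± 0.699 to 66.0% ± 1.28 of the sum, and Prkar1b from 0.555% ± 0.058 to 2.07% ± 0.162 (SD, n = 3 per group). The 2 RI genes together went from 49.5% ± 0.743 to 68.1% ± 1.42 (SD, n = 3 per group), a difference of 18.6 percentage points. For each of these shares the groups did not overlap and the exact permutation test (two-sided, difference of means) gave p = 0.1, the smallest that 3 against 3 libraries allow.

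Since longer mRNAs give more reads, the shares were also taken on RPKM, which divides each value by exon length and by the library total. There Prkar2b made up 18.6% ± 2.03 in Scr and 6.53% ± 0.313 in MICT1 KO, and Prkar2a 26.9% ± 0.857 and 19.6% ± 0.991 (SD, n = 3 per group). The RI genes went from 54.4% ± 1.18 to 73.8% ± 1.25 of the summed RPKM (SD, n = 3 per group). Prkar1a mRNA was 2.91 ± 0.394 times as abundant as Prkar2b mRNA per exon length in Scr libraries and 10.9 ± 0.653 times in MICT1 KO libraries (SD, n = 3 per group). In these cultures Prkar2b was thus the third R mRNA by RPKM in both groups, behind Prkar1a and Prkar2a. This order is of mRNA, and the amounts of R protein are not part of these data.

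**Figure D2:**
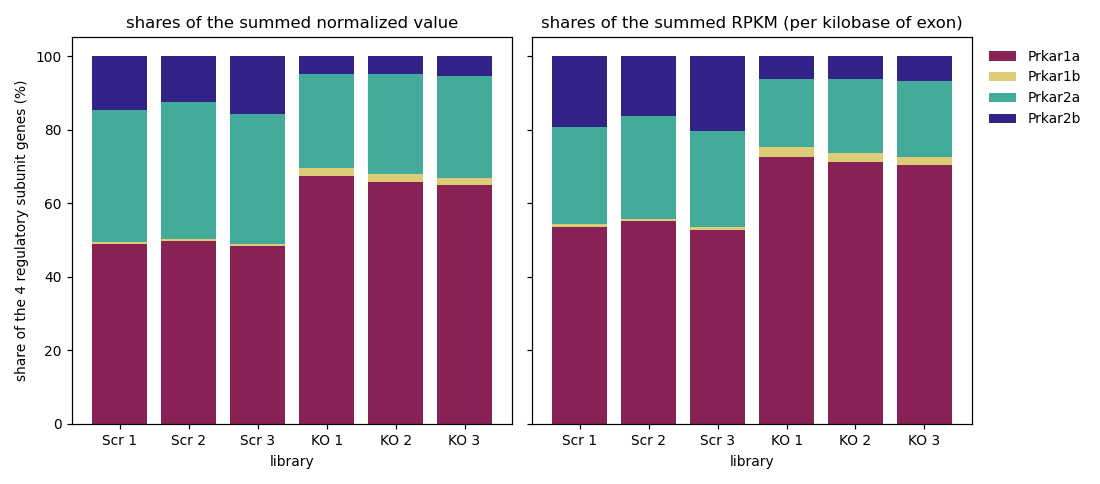
Share in percent of each of the 4 regulatory subunit genes in their sum (stacked bars) for each library, on the normalized values (left) and on RPKM (right). In the MICT1 KO libraries the Prkar2b block shrinks to 5.11% and 6.53% on average and the Prkar1a block grows to 66.0% and 71.3%.

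The summed value of the R genes was also lower in each MICT1 KO library, at 12722, 12437 and 13558 in Scr against 11098, 10856 and 11385 in MICT1 KO (exact permutation test, p = 0.1, the smallest possible). On the normalized scale the RII genes thus lost more value than the RI genes gained.

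The catalytic genes moved less than the RII genes. Prkaca, which encodes Cα, the C subunit that carries most PKA activity in many tissues, lies on chromosome 8 from 83972978 to 83996444. It had values of 2897, 2703 and 2883 in Scr, against 2847, 2874 and 2611 in MICT1 KO libraries, and the groups overlapped. The log2 fold change was -0.026 (SE 0.059 and limma-trend adjusted p = 0.726), and its 95% interval, -0.15 to 0.097, leaves room for changes of either sign within that range. Without KO replicate 3, the library with the least Prkaca, it was 0.017.

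Prkacb, which encodes Cβ, lies on chromosome 3 from 146729579 to 146812946. It fell from 2863, 3165 and 3151 in Scr down to 2554, 2537 and 2680 in MICT1 KO libraries. The groups did not overlap, and the log2 fold change was -0.24 (SE 0.059, 95% interval -0.36 to -0.12, limma-trend adjusted p = 0.00171). Its interval lay closer to 0 than those of Prkar2a and Prkar2b, without overlap.

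The summed C value, like the summed R value, was lower in each MICT1 KO library. It was 5760, 5868 and 6034 in Scr against 5401, 5411 and 5292 in MICT1 KO (exact permutation test, p = 0.1, the smallest possible). On RPKM the groups overlapped in this sum (exact permutation test, p = 0.3). With the length of the longest transcript in place of the exon length, a choice made after seeing the data, they did not overlap (exact permutation test, p = 0.1). The ratio of summed C to summed R values was 0.453, 0.472 and 0.445 in Scr, against 0.487, 0.498 and 0.465 in MICT1 KO libraries. It was 0.457 ± 0.0138 and 0.483 ± 0.0171 (SD, n = 3 per group), the groups overlapped, and the exact permutation test gave p = 0.2 (two-sided). On RPKM the ratio was 0.547 ± 0.0157 in Scr and 0.593 ± 0.0328 in MICT1 KO (SD, n = 3 per group), and the groups, 0.529 to 0.556 and 0.558 to 0.622, did not overlap (exact permutation test, p = 0.1). With the length of the longest transcript the groups overlapped in this ratio, and p was 0.3 by the same exact test. The sign was the same on each scale, and whether the groups overlapped depended on the length used.

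Among the anchoring proteins Akap12 rose most. It encodes gravin (SSeCKS), a scaffold at the plasma membrane that binds PKA and the β-adrenergic receptor, and lies on chromosome 10 from 4266329 to 4359471. Its values were 1237, 1196 and 1251 in Scr, against 2243, 2456 and 2901 in MICT1 KO libraries, with the wider spread in the latter. Its log2 fold change was 1.04 (SE 0.077, 95% interval 0.88 to 1.20, limma-trend adjusted p = 2.92e-10), or 2.06-fold by the means. It was 0.93 without KO replicate 3, the library with the most Akap12.

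Akap1, which anchors PKA at the outer mitochondrial membrane, lies on chromosome 11 from 88830792 to 88864596. It fell from 2239, 2150 and 2329 in Scr down to 1687, 1800 and 1730 in MICT1 KO libraries, without overlap. In log2 terms the change was -0.36 (SE 0.061, 95% interval -0.49 to -0.24, limma-trend adjusted p = 3.12e-05). Akap1 and Akap12 thus moved in opposite directions. They are single genes, and anchors were not compared by their place in the cell.

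Akap11 (AKAP220; chromosome 14 from 78492246 to 78536980), a large scaffold that also binds GSK3 and protein phosphatase 1, had values of 3634, 3690 and 4090 in Scr, against 3634, 4214 and 4017 in MICT1 KO libraries. The log2 fold change was 0.055 (95% interval -0.077 to 0.19, limma-trend adjusted p = 0.478). Akap13 (AKAP-Lbc; chromosome 7 from 75455526 to 75754609) had values of 1277, 1156 and 1136 in Scr, against 1276, 1378 and 1198 in MICT1 KO libraries. In log2 terms its change was 0.11 (95% interval -0.044 to 0.26, limma-trend adjusted p = 0.214). In both genes the groups overlapped, and the intervals exclude changes as large as that of Akap12.

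**Figure D3:**
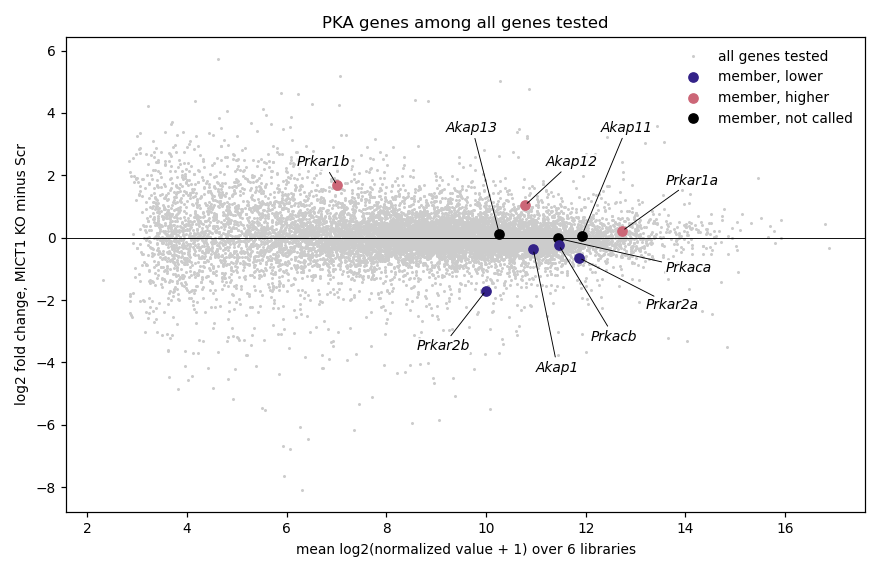
Log2 fold change of MICT1 KO minus Scr (vertical axis) against the mean log2(normalized value + 1) over the 6 libraries (horizontal axis) for the 12507 genes tested (grey) and the 10 PKA genes (large points, blue lower, red higher, black not called). Prkar2b (-1.70) and Prkar1b (1.67) lie farthest from 0 of the 10, and Prkaca, Akap11 and Akap13 lie near 0.

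Per exon length, the order of the mRNA levels in Scr libraries ran from Prkar1a (89.3 ± 3.20 RPKM) over Prkaca (69.5 ± 3.62), Prkar2a (44.7 ± 1.18), Akap1 (31.2 ± 1.52), Prkar2b (31.1 ± 5.06), Prkacb (21.3 ± 0.900), Akap11 (21.1 ± 1.36), Akap12 (11.6 ± 0.414) and Akap13 (3.48 ± 0.272) to Prkar1b (1.15 ± 0.0872; SD, n = 3 for each). The neighbours Akap1 and Prkar2b, and Prkacb and Akap11, had overlapping values, and the other neighbours did not. In MICT1 KO libraries Prkar2b, at 9.53 ± 0.672 RPKM, had moved to place 8, below Prkacb (18.1 ± 0.615 RPKM), while Akap12, at 24.0 ± 3.31 RPKM, had moved from place 8 to place 5 (SD, n = 3 for each). There Akap12 overlapped its neighbours Akap1 (24.3 ± 0.901 RPKM) and Akap11 (22.0 ± 1.76 RPKM), and Prkar1b (3.70 ± 0.207 RPKM) overlapped Akap13 (3.76 ± 0.265 RPKM; SD, n = 3 for each). These levels rest on the union of all annotated exons, from 2488 bases in Prkaca to 20914 in Akap13, which understates genes of which only a short transcript is used. The order of Prkar2b and Prkacb in Scr depends on this length. On the normalized values Prkacb was above Prkar2b already in Scr (3060 ± 170 against 1857 ± 289, SD, n = 3 for each).

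Of 32 further genes of the PKA pathway, 23 were in the table and 21 were tested, of which 5 were lower and 7 higher in MICT1 KO cells with an adjusted p under 0.05 (limma-trend), against 28.3% lower and 28.5% higher among all genes tested. These counts were close to the shares of the transcriptome, and the values that follow describe the single genes. The median log2 fold change of the 21 genes was -0.0045. The 1.8-fold change with an unadjusted p under 0.05 was met by 2 of the higher genes, Pkia and Ezr (10.1% of all genes), and by 0 of the lower genes (7.39% of all genes). Pkia did not reach the maximum RPKM of 4 that the methods also ask for.

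The heat-stable inhibitors of the C subunits were split. Pkia, which encodes PKIα, rose from 43.5, 34.3 and 40.7 in Scr up to 101, 102 and 114 in MICT1 KO libraries. In log2 terms its change was 1.40 (SE 0.23, 95% interval 0.91 to 1.89, limma-trend adjusted p = 3.19e-05). Pkig, which encodes PKIγ, had the higher values and fell, from 396, 342 and 384 to 300, 257 and 226.

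The log2 fold change of Pkig was -0.52 (SE 0.13, 95% interval -0.78 to -0.26, limma-trend adjusted p = 0.00137), so that an inhibitor mRNA of low level rose while that of higher level fell. Prkx, the gene of a kinase closely related to the C subunits, rose from 692, 749 and 684 to 1144, 1154 and 1050, a log2 fold change of 0.65 (SE 0.077 and limma-trend adjusted p = 3.06e-07). Pkib had no row in the table used here.

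Of 25 other genes of proteins with AKAP activity, 16 were tested, of which 4 were lower and 5 higher, also close to the 56.9% of all genes called in either direction. The lower genes were Arfgef2 (log2 fold change -0.81, adjusted p = 1.06e-09), which encodes the Golgi exchange factor BIG2, Akap9 (-0.37, adjusted p = 0.00302), an anchor at the centrosome and Golgi, Akap10 (-0.32, adjusted p = 0.00627), which binds both RI and RII, and Pakap (-0.30, limma-trend adjusted p = 0.000159), the locus that includes AKAP2. The values of Akap9 in the MICT1 KO libraries were 721, 980 and 980, and without KO replicate 1 its log2 fold change shrank to -0.22 (limma-trend adjusted p = 0.0214).

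The higher genes were Ezr (0.94, adjusted p = 6.03e-12), which encodes ezrin, a linker of membrane and actin, Wasf1 (0.71, adjusted p = 1.27e-05), an actin regulator, Nbea (0.55, adjusted p = 2.39e-05), a scaffold of vesicle traffic, Gskip (0.39, adjusted p = 0.0112), which tethers GSK3β, and Acbd3 (0.31, limma-trend adjusted p = 0.00114), a Golgi protein that binds RIα. Ezr was the clearest of them, with values of 2524, 2403 and 2367 in Scr, against 4802, 4551 and 4650 in MICT1 KO libraries. Gskip did not pass without Scr replicate 1 (log2 fold change 0.27, limma-trend adjusted p = 0.0827) or without KO replicate 1 (0.33, adjusted p = 0.0514). The other 7 that were tested did not pass with all libraries, but Pcnt was called higher without Scr replicate 1, and Pcnt and Akap8l were called higher without KO replicate 1.

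Pja2, which encodes the ubiquitin ligase praja2 that marks R subunits for degradation, had values of 1941, 1907 and 1760 in Scr, against 2002, 1981 and 2087 in MICT1 KO libraries. In log2 terms its change was 0.11 (95% interval -0.014 to 0.24, limma-trend adjusted p = 0.121). The groups did not overlap, as in 62.0% of all genes tested, and no change passed the test.

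**Figure D4:**
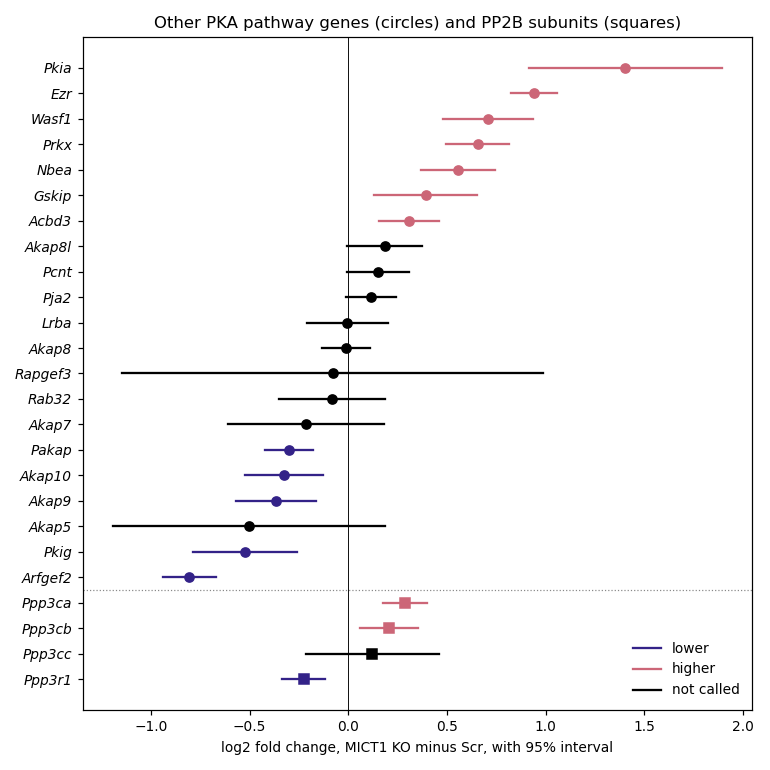
Log2 fold change of MICT1 KO minus Scr with its 95% interval (horizontal axis) for the 21 other PKA pathway genes tested (circles) and 4 PP2B subunit genes (squares), coloured by the call at an adjusted p of 0.05. Pkia (1.40) and Ezr (0.94) stand highest and Arfgef2 (-0.81) lowest.

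PP2B is the phosphatase that acts on the RII inhibitor site, and 4 of its 5 subunit genes were in the table. The catalytic subunit genes Ppp3ca (log2 fold change 0.29, adjusted p = 0.000110) and Ppp3cb (0.21, adjusted p = 0.0168) were higher and the regulatory subunit gene Ppp3r1 was lower (-0.23, limma-trend adjusted p = 0.00112), while Ppp3cc did not pass (0.12, adjusted p = 0.544). Ppp3cb did not pass without Scr replicate 2, Scr replicate 3 or KO replicate 1 (adjusted p of 0.0555, 0.0588 and 0.0656 from limma-trend).

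The adipocyte label of the cultures was checked on marker genes. Of 8 brown adipocyte markers 3 were in the table, and the defining gene Ucp1, which encodes the uncoupling protein of brown fat, had values of 20.8 to 30.5 in Scr and 1.05 to 9.33 in MICT1 KO libraries. Cidea, Dio2, Prdm16, Elovl3 and Cox8b had no row, so the brown label rests on few of its markers here. The 3 brown markers summed to 5.41 to 6.45 CPM in Scr and 8.82 to 12.0 CPM in MICT1 KO libraries, with Ucp1 lower and Ebf2 higher. All 10 adipocyte markers (such as Adipoq, Fabp4, Plin1 and Pparg) were lower in MICT1 KO cells at an adjusted p below 0.05. Their median log2 fold change was -3.96. The authors also reported lower expression of adipogenic genes in the CRISPR knockout cells. Whether the groups differed in differentiation was not tested here. Of 8 progenitor and fibroblast markers tested, 5 were higher and 2 lower, with a summed level of 2290 to 2660 CPM in Scr and 3720 to 3890 CPM in MICT1 KO libraries.

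Markers of other cell types were scarce. Of 10 macrophage markers 4 were in the table, summing to 16.6 to 23.1 CPM in Scr and 31.8 to 39.2 CPM in MICT1 KO libraries, of which Cd14 was higher and 3 did not pass, and Adgre1 and Ptprc had no row. Of 5 endothelial markers only Cdh5 had a row, at 0.368 to 0.725 CPM in Scr and 1.59 to 2.03 CPM in MICT1 KO libraries. Of 8 muscle markers 2 had a row, together at 3.79 to 4.79 CPM in Scr and 3.37 to 5.74 CPM in MICT1 KO libraries. Their part in the PKA results was not tested.

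The genes whose pattern was most like that of Prkar2b, by Pearson's r of log2(value + 1) over the 6 libraries, were Akt2 (0.9994), Abhd11 (0.9986) and Lpin1 (0.9986). For Prkar1a they were Asb4 (0.9986), Inip (0.9975) and Il17rd (0.9974). With 3 libraries in each of 2 distinct groups such an r mostly records the difference between the groups, and r was above 0.99 for 212 genes with Prkar2b and for 25 with Prkar1a.

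Promoter sequences (RefSeq, GRCm38.p6, 250 bases before to 50 after an annotated start) were matched by symbol for 9 of the 10 genes (not Akap12), in 25 windows. The cAMP response element (CRE), the site of CREB, was searched as TGACGTCA and its core as TGACG on both strands. The full CRE was in 2 windows, both of Prkar1a, which overlap and hold the same site. It was in 1.79% of the 32851 windows of all genes and in 2.95% of the windows of genes in the table. The core was in 8 windows of 6 of the genes (Prkar1a, Prkar1b, Prkar2a, Prkaca, Prkacb and Akap11), which include genes that rose, fell and did not pass. It was in 20.8% of all windows and in 30.6% of the windows of genes in the table. Each full CRE holds the core on both strands.

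A window of Prkar1a with the full CRE and a window of Prkar2b, the gene that fell most, are shown with each core in capitals. The Prkar1a window shown lies at chr11:109650612-109650911 (plus strand) and the Prkar2b window at chr12:32061228-32061527 (minus strand). Prkar2a and Prkacb, which fell, also hold a core in a window not shown.
Prkar1a: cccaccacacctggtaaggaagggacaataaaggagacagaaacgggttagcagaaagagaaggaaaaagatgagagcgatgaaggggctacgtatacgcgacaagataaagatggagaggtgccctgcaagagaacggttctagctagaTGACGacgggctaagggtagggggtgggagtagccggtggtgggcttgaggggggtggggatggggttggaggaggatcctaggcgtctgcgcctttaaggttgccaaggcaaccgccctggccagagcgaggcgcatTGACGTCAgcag
Prkar2b: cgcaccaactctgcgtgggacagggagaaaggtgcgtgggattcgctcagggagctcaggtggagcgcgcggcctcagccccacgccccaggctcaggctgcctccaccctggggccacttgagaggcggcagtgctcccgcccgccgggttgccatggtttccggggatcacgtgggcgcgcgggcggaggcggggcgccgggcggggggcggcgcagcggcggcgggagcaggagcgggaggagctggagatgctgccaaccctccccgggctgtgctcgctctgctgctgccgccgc
In the Prkar1a window shown, the full CRE begins 38 bases after the annotated start and a further core 100 bases before that start. In the other Prkar1a window that holds this CRE, it begins 49 bases before the annotated start of that window. The Prkar2b window, and the other of its 2 windows, holds no core. Neither window reaches the outer 5′ end of the gene, at 32061648, so the bases before that end were not searched. These matches describe the letters of the windows, and binding was not measured here.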

How the data were processed

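RNA-seq libraries of 3 Scr and 3 MICT1 KO cultures were mapped to groups and replicate numbers by their titles. According to the methods the authors made strand-specific total RNA libraries (the labels say only that a company built and sequenced them) and aligned the reads to mm10 with Partek software. The submitters' processing notes also name STAR and DESeq2, with no version. The counting model and annotation are not given in the sources used here. The authors deposited a normalized signal per gene, in which every value is above 0.

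The test on log2(value + 1) was limma-trend (limma 3.58.1, R 4.3.3) without covariates over 12507 genes. The methods' GSA test was not available here. No count test was run because the values are not whole. Fold changes on this scale understate changes of low genes. RPKM used the sum of a library's values and the union of GENCODE vM21 exons, found for 13136 genes (98.9%), 206 of them by an older symbol. Positions come from RefSeq (GRCm38.p6). Shares and ratios, 1 value per library, were compared by exact permutation (scipy 1.17.1). The fit was tested on simulated data with known changes.

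The members, gene lists and tests were chosen with earlier results of these data known. The text names every member, the other PKA pathway genes past the threshold or encoding an inhibitor, the PP2B subunits found, the closest 3 patterns and marker genes. Pja2, Pcnt, Akap8l and the overlapping gene Gm15672 were named after the data were seen. Alternatives were other scalings, limma-voom, other filters, pseudocounts and call rules, a replicate block, and each library left out. Scaling without Rn45s, sums without Prkar1b and the transcript length were added after seeing the data. Protein sequences were not used here. The p-values cover these cultures of a single cell line.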

Additional observations from a re-analysis of the deposited data

How the results depend on the processing

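With each library left out in turn, 4 PKA genes stayed lower and 3 higher, and of the other PKA pathway genes 5 were lower and 7 to 8 higher, though not always the same higher genes (Gskip was lost and Pcnt gained without Scr replicate 1, and Gskip was lost and Pcnt and Akap8l gained without KO replicate 1). The same counts of PKA genes, 4 and 3, were found under each of the other fits at an adjusted p of 0.05 (library size with and without Rn45s, trimmed mean of M values, limma-voom, no filter, pseudocounts of 0.5 and 5), except that 4 and 2 were called among genes with a maximum RPKM of at least 4, where Prkar1b was not tested. The 1.8-fold change and unadjusted p of the methods, without their RPKM limit, gave 1 lower PKA gene, and 0 lower and 2 higher among the other PKA pathway genes. With single libraries left out the log2 fold change of Prkaca ran from -0.0586 to 0.0174, and it was above 0 only without KO replicate 3.

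The difference in the Prkar2b share was -9.24 percentage points, between -10.1 and -8.54 with each library left out, and -12.1 on RPKM. That of the Prkar1a share was 17.1 points, between 16.4 and 17.6. That of the C to R ratio was 0.0267, between 0.0192 and 0.0360, and 0.0467 on RPKM.

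Same-numbered libraries did not clearly deviate together (r of deviations from the group means -0.0236, -0.0155 and 0.0637 for numbers 1, 2 and 3). This gave no sign of pairing by number but cannot exclude it. With the replicate number as a block 4 PKA genes were lower and 3 higher, and 5 and 7 of the other PKA pathway genes. With 3 libraries per group no exact test of a single value can go below p = 0.1.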
